A study of Mus musculus with 24 samples.

Results

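A set of 9 genes of the slow (type I) muscle fibre was followed in the quadriceps femoris of mice: the troponins Tnnt1, Tnni1 and Tnnc1, the myosin light chains Myl2 and Myl3, the tropomyosin Tpm3, the calcium handling genes Atp2a2 and Casq2, and the Z-disc gene Myoz2. They were chosen by name, as the 9 rows of a count table of 18669 genes that carry these symbols, and all 9 were among the 13754 genes tested. The libraries came from 24 mice that formed 12 groups (3 genotypes by 4 treatments, 2 mice per group) on the CBA x C57BL/6 F1 background. Wild type mice and R6/2 mice, a model of Huntington's disease that carries exon 1 of the mutant human huntingtin gene as a transgene, were 12 weeks old. Hsf1-/- mice, which lack the heat shock transcription factor HSF1, were 10 weeks old in the heat shock arm and 8 weeks old in the HSP990 arm, so that age and genotype cannot be told apart in their comparison with wild type mice. For the heat shock (HS), anaesthetized mice were warmed and kept at 41.5 °C for 15 min, and their controls were anaesthetized in the same pad at 36.9 °C for 21 min. HSP990, an inhibitor of HSP90, was given by oral gavage at 12 mg per kg, and vehicle mice received the carrier alone. Muscle was taken 4 h after treatment in all groups.

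Slow fibres contract slowly, use oxidative metabolism and build their sarcomeres from isoforms that fast fibres largely replace by the product of a related gene. In the thin filament, the troponin complex binds calcium and moves tropomyosin off the actin sites, and in the thick filament the light chains sit on the neck of the myosin head. Calcium is pumped back into the sarcoplasmic reticulum by the SERCA pumps and held there by calsequestrins. Several of the slow isoforms are also the isoforms of the heart. The mouse quadriceps consists mostly of fast fibres, with slow fibres gathered in its deep part.

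The 5′ flanks of the members were read from RefSeq to see what genes that varied together hold in front of their start. RefSeq's table (build GRCm38.p6) had 11 start windows for 8 of the 9 members, with Atp2a2 not listed. An E-box, CANNTG, stood in the 250 bases upstream of the start in 11 of 11 windows and in 66.2% of 32851 windows of all genes. The MEF2 consensus stood in 2 of the 11, those of Casq2 and Myoz2, against 2.92% of all windows. CATTCC, read on both strands like every motif here, stood in 2 windows (Tnnc1 and Myl3) against 12.6%, CACCC in 8 against 52.0%, TATAAA in 2 (Tnnt1 and Myl2) against 12.4%, and GAANNTTC, the core of the heat shock element, in 0 against 6.69%. A match says only that these letters are present. The last 150 bases before the start are printed for 3 genes that rose and fell together over the mice (Tnnt1, Tnnc1 and Myl3) and for the 2 genes whose level relative to the fast isoform set R6/2 mice apart (Casq2 and Myoz2). Capitals mark E-boxes, CATTCC, the MEF2 consensus and TATAAA, of which none overlapped another.
Tnnt1, chr7:4515976-4516125, minus strand: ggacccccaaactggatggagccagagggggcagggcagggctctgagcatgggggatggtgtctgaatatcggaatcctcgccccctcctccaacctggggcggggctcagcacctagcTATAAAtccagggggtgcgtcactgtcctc
Tnnc1, chr14:31208162-31208311, plus strand: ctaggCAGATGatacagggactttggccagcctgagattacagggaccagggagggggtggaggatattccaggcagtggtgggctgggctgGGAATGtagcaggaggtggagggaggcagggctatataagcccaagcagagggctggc
Myl3, chr9:110763528-110763677, plus strand: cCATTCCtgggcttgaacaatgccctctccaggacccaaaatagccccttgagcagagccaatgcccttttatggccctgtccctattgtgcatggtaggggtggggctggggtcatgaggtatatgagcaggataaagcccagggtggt
Casq2, chr3:102086265-102086414, plus strand: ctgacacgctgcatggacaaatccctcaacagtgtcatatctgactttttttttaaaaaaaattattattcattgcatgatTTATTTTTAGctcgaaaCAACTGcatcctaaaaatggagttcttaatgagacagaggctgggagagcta
Myoz2, chr3:123034988-123035137, minus strand: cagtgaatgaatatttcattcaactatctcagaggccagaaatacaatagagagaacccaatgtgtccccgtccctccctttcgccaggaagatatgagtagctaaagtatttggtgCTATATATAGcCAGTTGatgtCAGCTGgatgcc

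Library totals ran from 22450177 to 46599238 counts, and the lowest count of any member in any mouse was 39 (Tnni1 in 1 Hsf1-/- vehicle mouse). Levels are CPM, the counts scaled by TMM to a common library size. The TMM factors ran from 1.19 to 1.395 in R6/2 mice and from 0.8079 to 0.954 in the others. Hsf1 itself lay between 21.1 and 29.0 CPM in the 8 Hsf1-/- mice and between 45.3 and 68.6 CPM in the 16 other mice, without overlap. Summed counts of 4 Y-linked genes were 0 to 4 in the wild type and R6/2 mice of the heat shock arm and at least 3916 in all other groups, including the Hsf1-/- mice of the heat shock arm. R6/2 and wild type mice were therefore alike in this respect within each treatment, whereas Hsf1-/- and wild type mice of the heat shock arm were not. The 9 skeletal fibre markers checked against the tissue label summed to between 47280 and 96540 CPM in R6/2 mice and to between 208800 and 284200 CPM in the 16 others. The 10 heart and immature muscle isoforms summed to between 633.1 and 3713 CPM in wild type, 88.69 and 648.5 CPM in R6/2 and 558.1 and 2769 CPM in Hsf1-/- mice. Among genes of the heart, Myl7, Nppa and Mybpc3 were at 0 in most mice, and the cardiac troponin I gene Tnni3 reached at most 0.388 CPM. The cardiac troponin T gene Tnnt2 (0.3824 to 2.505 CPM) and the myosin heavy chain gene Myh6 (0.7508 to 35.47 CPM) were counted in every mouse. Most of the sums above came from other genes of that list, which are not broken down here, so that low levels of the genes named do not extend to the list.

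Per length, all members were minor transcripts beside the fast isoforms. In wild type mice Myl3, the ventricular and slow essential light chain, had the highest mean level with 82.3 CPM per kb of its longest coding transcript, followed by Myoz2 with 60.7 and Myl2, the slow regulatory light chain, with 39.9 CPM per kb. The slow troponin T gene Tnnt1 (20.5 CPM per kb), Atp2a2 (19.7), the slow troponin C gene Tnnc1 (18.2) and Casq2 (18.0) lay close together, and neighbours in this order did not differ beyond their spread over mice. The slow troponin I gene Tnni1 (10.9 CPM per kb) and Tpm3 (8.04 CPM per kb) were lowest. Among fast counterparts the fast troponin C gene Tnnc2 reached 14930 CPM per kb and the fast pump gene Atp2a1 15580 CPM per kb. For Tpm3, 85.4% of the 2233 bases of the transcript also matched another place in mm9 at 98% identity or more, and for Atp2a2 6.40% did, so that the level of Tpm3 is uncertain if reads were shared between the copies. No such stretch of 40 bases or more was found for the 7 other members.

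**Figure D1:**
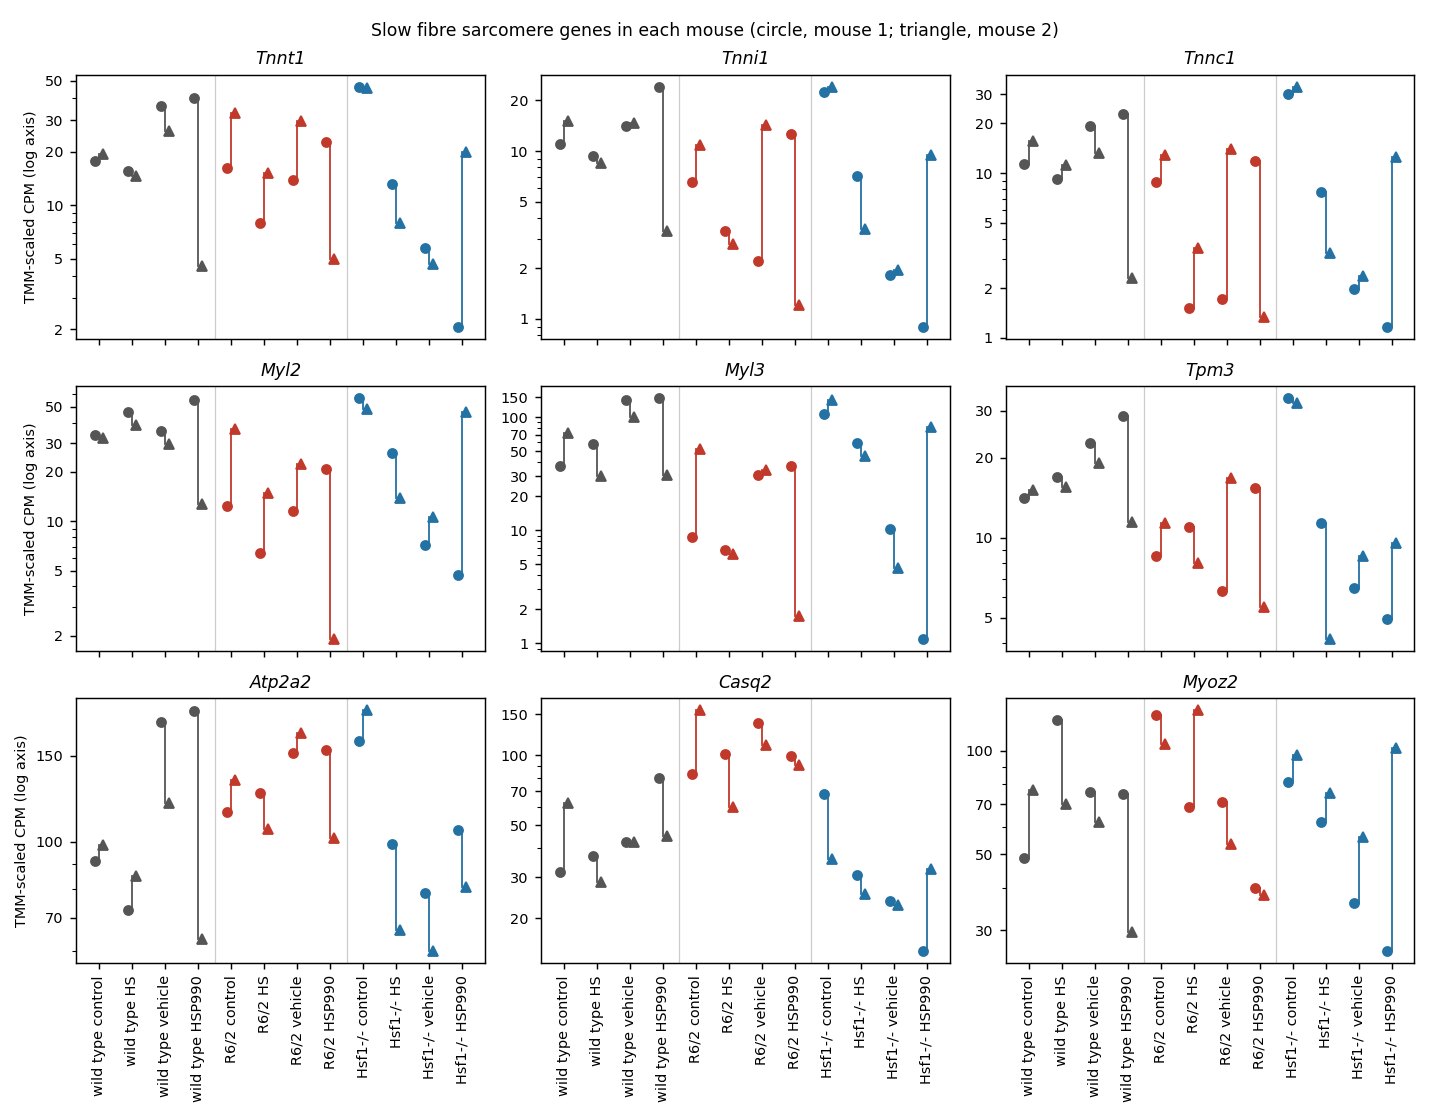
TMM-scaled CPM (log axis) of the 9 slow fibre genes in each of 24 mice, by genotype (grey, wild type; red, R6/2; blue, Hsf1-/-) and treatment, with mouse 1 as a circle, mouse 2 as a triangle and a line joining them. The pairs of the HSP990 groups lie furthest apart in Tnnt1, Tnni1, Tnnc1 and Myl2, and Casq2 is high in R6/2 mice.

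The thin filament genes varied widely between mice of the same group. In mm9, Tnnt1 lies at chr7:4456172-4467984, Tnni1 at chr1:137679642-137707566, Tnnc1 at chr14:32021498-32024915 and Tpm3 at chr3:89876571-89904824. Tnnt1, whose product anchors the troponin complex to tropomyosin, was at 17.7 and 19.4 CPM in wild type controls, 15.6 and 14.6 after HS, 36.3 and 26.02 with vehicle, and 39.8 and 4.53 after HSP990. In R6/2 mice Tnnt1 was at 16.3 and 33.0 CPM in controls, 7.95 and 15.1 after HS, 13.8 and 29.9 with vehicle, and 22.5 and 4.94 after HSP990. In Hsf1-/- mice Tnnt1 was at 46.4 and 45.7 CPM in controls, 13.1 and 7.91 after HS, 5.70 and 4.65 with vehicle, and 2.07 and 19.8 after HSP990. The 2 mice of each HSP990 group thus lay far apart, and both Hsf1-/- controls were above every wild type and R6/2 mouse for this gene.

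Tnnc1, the calcium sensor of slow and cardiac troponin, followed the same mice. It was at 11.4 and 15.6 CPM in wild type controls, 9.21 and 11.2 after HS, 19.4 and 13.2 with vehicle, and 22.7 and 2.32 after HSP990. In R6/2 mice Tnnc1 was at 8.83 and 12.9 CPM in controls, 1.51 and 3.51 after HS, 1.71 and 14.0 with vehicle, and 11.9 and 1.34 after HSP990. Tnnc1 in Hsf1-/- mice was at 30.02 and 33.5 CPM in controls, 7.70 and 3.26 after HS, 1.98 and 2.37 with vehicle, and 1.17 and 12.5 after HSP990. Both ends of its 28.6-fold range over 24 mice were Hsf1-/- mice, an HSP990 mouse at the low end and a control at the high end. Tnni1, the inhibitory subunit, had a lowest, median and highest level of 3.36, 12.6 and 24.2 CPM in wild type mice, 1.21, 4.91 and 14.4 CPM in R6/2 mice, and 0.900, 5.27 and 24.1 CPM in Hsf1-/- mice. Tpm3, the slow tropomyosin, ranged from 11.4 to 28.6 CPM in wild type mice, from 5.51 to 16.8 in R6/2 mice and from 4.17 to 33.4 in Hsf1-/- mice.

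The light chains of the thick filament, Myl2 (chr5:122550960-122563481) and Myl3 (chr9:110666150-110672308), had the largest typical difference between mice of a group. Myl3 was at 37.2 and 73.2 CPM in wild type controls, 57.7 and 30.5 after HS, 143.7 and 100.6 with vehicle, and 146.8 and 30.9 after HSP990. In R6/2 mice Myl3 was at 8.81 and 52.7 CPM in controls, 6.66 and 6.21 after HS, 30.9 and 34.2 with vehicle, and 37.4 and 1.75 after HSP990. In Hsf1-/- mice Myl3 was at 107.5 and 141.4 CPM in controls, 59.7 and 45.3 after HS, 10.3 and 4.61 with vehicle, and 1.10 and 81.5 after HSP990. A single pair of mice of the same genotype and treatment, the Hsf1-/- HSP990 pair, thus spanned most of the 133.2-fold range of Myl3. Myl2 had a lowest, median and highest level of 12.8, 34.5 and 55.1 CPM in wild type mice, 1.92, 13.6 and 36.8 CPM in R6/2 mice, and 4.72, 19.97 and 56.3 CPM in Hsf1-/- mice.

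The calcium handling genes Atp2a2 (chr5:122903531-122952183) and Casq2 (chr3:101890338-101950437) and the Z-disc gene Myoz2 (chr3:122709124-122737908) had 3.09-fold, 10.69-fold and 5.01-fold ranges over the 24 mice, against 8.01-fold for Tpm3 and 22.4-fold or more for the 5 other members. Casq2, the slow and cardiac calsequestrin, was at 31.7 and 62.5 CPM in wild type controls, 36.8 and 28.5 after HS, 42.3 and 42.3 with vehicle, and 80.2 and 45.1 after HSP990. In R6/2 mice Casq2 was at 83.1 and 155.5 CPM in controls, 101.6 and 60.2 after HS, 136.7 and 110.4 with vehicle, and 98.9 and 91.2 after HSP990. Casq2 in Hsf1-/- mice was at 68.0 and 36.0 CPM in controls, 30.7 and 25.3 after HS, 23.6 and 22.7 with vehicle, and 14.6 and 32.5 after HSP990. R6/2 mice were above the wild type mice of the same treatment in all 4 treatments for this gene. Atp2a2, which encodes SERCA2, had a lowest, median and highest level of 63.4, 95.1 and 184.8 CPM in wild type mice, 102.0, 129.6 and 167.2 CPM in R6/2 mice, and 60.0, 89.9 and 185.6 CPM in Hsf1-/- mice. Myoz2, the slow member of the calcineurin-binding Z-disc proteins called calsarcins, had medians of 72.7, 70.1 and 68.9 CPM in wild type, R6/2 and Hsf1-/- mice and ranged from 26.2 to 131.3 CPM overall.

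How far a single mouse set a group's mean was measured by the log2 ratio of the 2 mice of a group (CPM + 0.5). Its median size was 0.54 over the 9 members and 12 groups, against 0.19 over all genes tested. In wild type HSP990 mice the median was 2.07 for the members against 0.19 for all genes, with 9 of 9 members higher in mouse 1. In R6/2 HSP990 mice it was 2.08 against 0.18, again with 9 of 9 higher in mouse 1. In Hsf1-/- HSP990 mice it was 2.83 against 0.21, with 8 of 9 higher in mouse 2. At most 0.444% of the genes tested differed that much between the mice of these 3 groups. R6/2 vehicle, HS and control mice (0.93, 0.75 and 0.71) and Hsf1-/- HS mice (0.7) came next, and the members differed by 0.21 to 0.43 in the remaining groups.

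**Figure D2:**
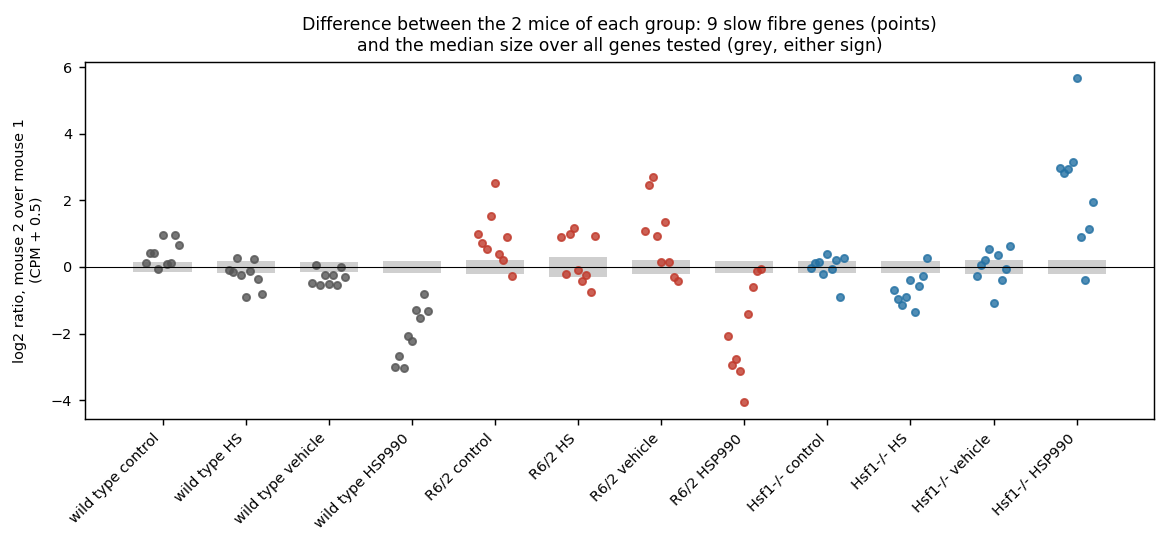
Log2 ratio of mouse 2 over mouse 1 in each group for the 9 slow fibre genes (points, coloured by genotype), with the median size over all 13754 genes tested as a grey band on both sides of 0. In the wild type and R6/2 HSP990 groups all points lie below 0, and in the Hsf1-/- HSP990 group 8 of 9 lie above it, by up to 5.68.

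Taken over the 12 groups, the median difference between mice was larger for Myl2 and Myl3 than for 99.3% of the genes tested, for Tnnt1 than for 98.9%, for Tnnc1 than for 98.7%, for Tnni1 than for 97.1%, for Casq2 than for 96.8%, for Myoz2 than for 95.8%, for Tpm3 than for 90.5% and for Atp2a2 than for 79.0%. The troponin, light chain and tropomyosin genes moved together: Pearson's r between their log2 levels was 0.73 to 0.97 (median 0.87) over the 24 mice for the 15 pairs of these 6 genes. Between these 6 and Atp2a2, Casq2 and Myoz2 the median r was 0.42, and among those 3 genes it was 0.27. The division into 6 and 3 was made after the values were seen, and the points share libraries and scaling, so that these r are descriptions.

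Among the 7495 genes with a mean of at least 10 CPM outside the members, the pattern most like their mean standardised level was that of Myh7, the slow myosin heavy chain, with r = 0.92 over 24 mice. Myh7 ranged from 5.54 to 166.6 CPM in wild type mice, from 2.13 to 66.9 in R6/2 mice and from 1.44 to 243.7 in Hsf1-/- mice. It was followed by Coq8a (r = 0.76), a kinase-like protein of ubiquinone synthesis, Idh2 (0.75), the mitochondrial NADP-dependent isocitrate dehydrogenase, Ldhb (0.67), the lactate dehydrogenase subunit of oxidative tissue, and Mycbp2 (0.67), a ubiquitin ligase. For the deviations from the group means, which hold only the difference between mice, the order was Myh7 (0.94), Vopp1 (0.9), Ldhb (0.88), Myh2 (0.84), the heavy chain of type IIa fibres, and Ppif (0.83), the mitochondrial cyclophilin D.

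Markers of other cells were set beside these differences. The summed level of 7 adipocyte markers ran from 284.2 to 1511 CPM in wild type mice, from 217.1 to 412.2 in R6/2 mice and from 529.3 to 2212 in Hsf1-/- mice, with none of the 7 at 0 in all mice of a genotype. In the Hsf1-/- HSP990 pair it was 2212 CPM in mouse 1, which was low in the members, and 529.3 CPM in mouse 2. In the wild type HSP990 pair it was 284.2 CPM in mouse 1 and 723.7 CPM in mouse 2, which was low in the members, and in the R6/2 HSP990 pair it was 353.6 and 412.2 CPM. Over the 12 groups the log2 ratio of the 2 mice for the adipocyte sum had r = -0.74 with that for the members. For 8 fibroblast and tendon markers r was 0.64, and for 20 other slow and oxidative fibre genes 0.76. These were the largest of the lists compared. Others were red blood cell (-0.56), skeletal fibre (0.5), Schwann cell (0.49), heart and immature (0.3), endothelial (0.25), macrophage (-0.22), Y-linked (-0.08) and smooth muscle genes (-0.04). Over the 24 mice, r with the members' median was -0.31 for adipocyte, 0.34 for fibroblast and tendon and -0.57 for smooth muscle markers. The part of adipose or connective tissue in the differences between mice was not tested. Fewer slow fibres and less of these RNAs per fibre cannot be told apart in whole muscle.

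R6/2 mice were compared with wild type mice over all 4 treatments, 8 mice against 8, to see what the mutant transgene goes with in these genes. Casq2 rose, by 1.2 on the log2 scale (SE 0.208, edgeR quasi-likelihood test with Benjamini-Hochberg adjustment, adjusted p = 0.00021). Myl3 fell by 1.93 (SE 0.641, adjusted p = 0.023), Myl2 fell by 1.24 (SE 0.47, adjusted p = 0.045) and Tpm3 fell by 0.78 (SE 0.267, adjusted p = 0.027). Thus 4 of 9 members passed the test in a comparison in which 40.9% of all genes tested did, with 21.1% higher and 19.8% lower. The 5 others did not pass: Tnnc1 had a log2 fold change of -1.08 (SE 0.541, adjusted p = 0.12), Tnni1 -0.98 (SE 0.508, adjusted p = 0.14), Tnnt1 -0.3 (SE 0.435), Atp2a2 0.27 (SE 0.173) and Myoz2 0.09 (SE 0.25). The median over the 9 was -0.78, against 0.03 over all genes, and no member separated all 8 R6/2 mice from all 8 wild type mice. In the same comparison 8 of 9 skeletal fibre markers (median -1.75) and 6 of 7 adipocyte markers (median -1.52) were called as lower, and the part of either in the changes of the members was not tested.

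Of the 4 called differences, that of Casq2 was called under each of the 25 alternatives run, between 1.07 and 1.79 (adjusted p from 5.9e-07 to 0.00094). With library size in place of TMM, which moves the median of all genes from 0.03 to 0.61 and the calls from 51.6% to 94.8% higher, the falls were no longer called (Myl3 -1.36, adjusted p = 0.056; Myl2 -0.68, adjusted p = 0.19; Tpm3 -0.2, adjusted p = 0.48), and Atp2a2 (0.85, adjusted p = 0.00024) and Myoz2 (0.68, adjusted p = 0.019) were called as higher. Leaving out 1 mouse gave 1 to 6 called members: 1 without mouse 1 of the R6/2 controls, and 2 without mouse 1 of the wild type vehicle, wild type HSP990 or R6/2 vehicle group or mouse 2 of the R6/2 HSP990 group. Over the 16 mice left out in turn, Casq2 was called 16 times, Myl3 14 times, Tpm3 10 times and Myl2 only 5 times. An alternative without the 3 HSP990 groups was added after the data were seen. It called 7 members, and 5002 of the 13754 genes tested. Besides the 4 these were, by edgeR's test, Tnni1 (-0.98, adjusted p = 0.031), Tnnc1 (-1.14, adjusted p = 0.031) and Atp2a2 (0.35, adjusted p = 0.039).

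**Figure D3:**
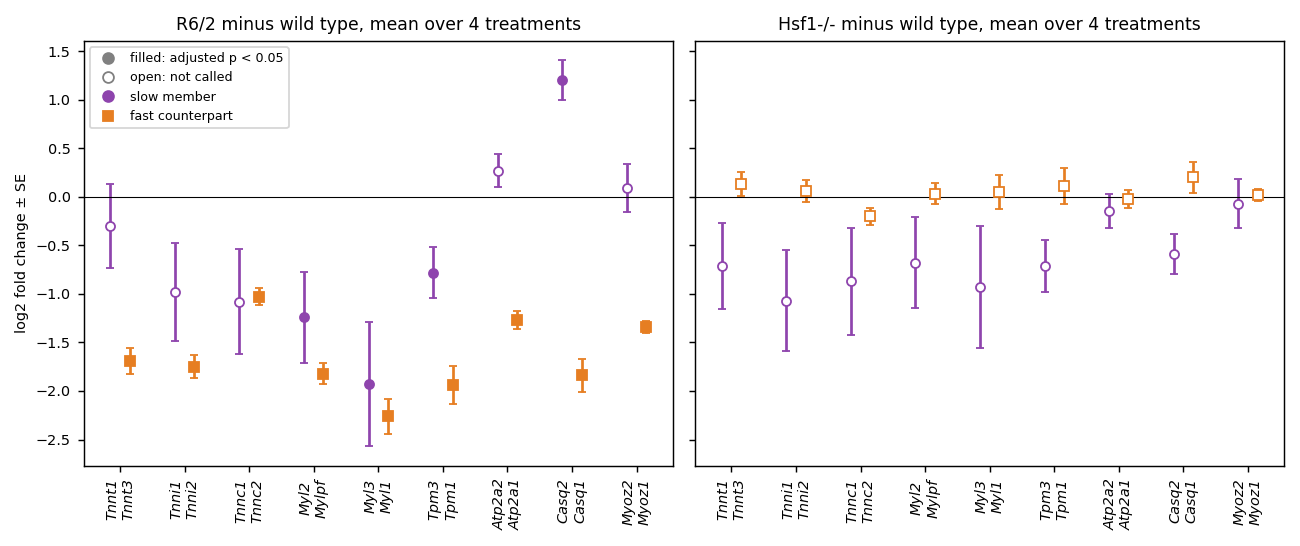
Log2 fold change ± SE of each slow member (purple circles) and its fast counterpart (orange squares) for R6/2 and for Hsf1-/- mice against wild type mice, mean over 4 treatments, 8 mice against 8, with filled symbols for an adjusted p under 0.05. In R6/2 mice all 9 fast counterparts fell while Casq2 rose by 1.2, and in Hsf1-/- mice all 9 members lie below 0 with none called.

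Within single treatments the R6/2 difference of Casq2 was called in controls (1.34, SE 0.418, adjusted p = 0.045, where 12.4% of all genes were called) and in vehicle mice (1.55, SE 0.42, adjusted p = 0.016, with 19.2% of all genes called). After HS it was 1.31 (SE 0.419, adjusted p = 0.052, with 12% of all genes called), and after HSP990 it was 0.6 (SE 0.412, adjusted p = 0.41, with 9.55% of all genes called). No other member was called in any of these 4 comparisons. The R6/2 and wild type mice of a treatment did not overlap for 3 members that were higher and 2 that were lower in controls (29.5% and 28.9% of all genes), 2 and 5 after HS (25.7% and 24.8%), 1 and 3 with vehicle (32.6% and 28.3%), and 1 and 0 after HSP990 (27.8% and 27.7%). Casq2 was among the higher members in all 4.

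All 9 fast counterparts fell in R6/2 mice over the 4 treatments, with a median of -1.75 and a range from -1.03 for Tnnc2 to -2.26 for Myl1, an essential light chain of fast fibres. With library size in place of TMM all 9 were still called as lower, with a median of -1.17, where 520 of the 13754 genes tested were. The log2 ratio of the slow to the fast count within a mouse, which needs no scaling between libraries, differed between these genotypes for several pairs. Casq2 over Casq1 was -5.3 ± 0.547 in wild type mice and -2.19 ± 0.744 in R6/2 mice (mean ± SD, n = 8 each), a difference of 3.11, and the lowest R6/2 mouse (-3.55) lay above the highest wild type mouse (-4.37). For Myoz2 over Myoz1 the wild type mice had -5.62 ± 0.53 and the R6/2 mice -4.14 ± 0.53, a difference of 1.48, and these mice did not overlap either. The difference was 1.6 for Atp2a2 over Atp2a1, 1.45 for Tnnt1 over Tnnt3 and 1.19 for Tpm3 over Tpm1, whereas it was 0.6 for Tnni1 over Tnni2, 0.38 for Myl2 over Mylpf, 0.03 for Myl3 over Myl1 and -0.21 for Tnnc1 over Tnnc2. Of the 9 pairs calsequestrin had the widest gap between the genotypes and the essential light chains the narrowest. For Myl1, 65.0% of the transcript matched another place in mm9, and for Tpm3 85.4% did, which makes the ratios of both pairs uncertain.

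**Figure D4:**
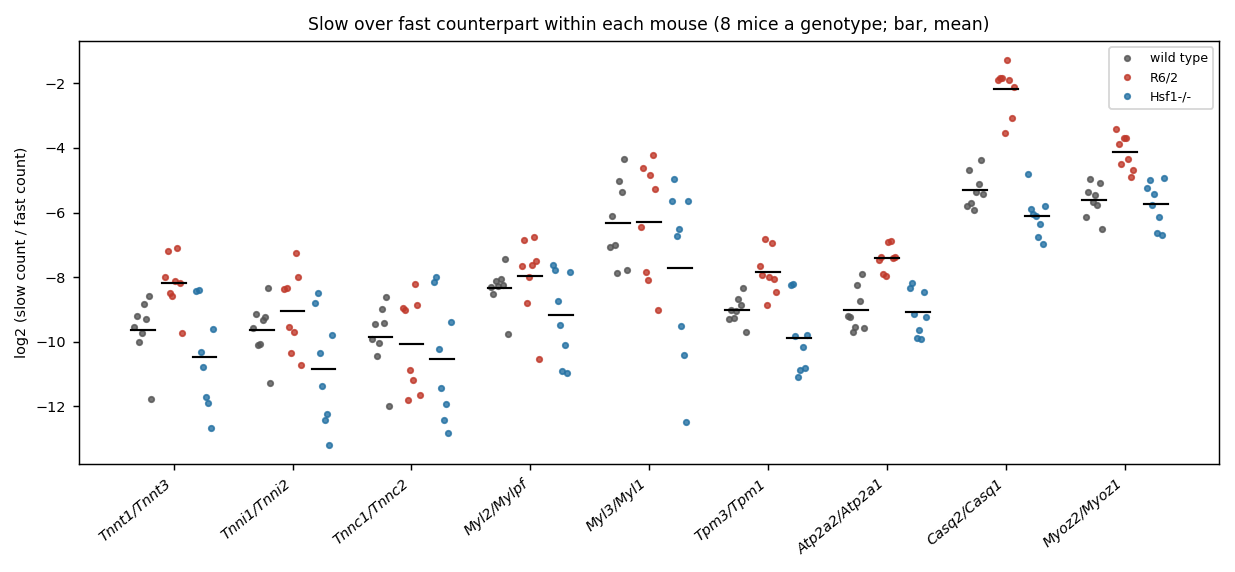
Log2 of the count of each slow gene over that of its fast counterpart within each mouse, by genotype (grey, wild type; red, R6/2; blue, Hsf1-/-), with 8 mice per genotype and a bar at the mean. The R6/2 mice lie above all wild type mice for Casq2/Casq1 and Myoz2/Myoz1 and overlap with them for the other 7 pairs.

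Of the 19 other slow and oxidative fibre genes tested, 3 rose and 8 fell in R6/2 mice, where 21.1% of all genes rose and 19.8% fell. Sln, the sarcolipin that inhibits SERCA, rose by 4.03 (SE 0.619, adjusted p = 6.5e-05), and Tecrl rose by 3.11 (SE 1.14). Mb, the oxygen store myoglobin, fell by 1.88 (SE 0.21, adjusted p = 2.8e-06), Ctnna3, an alpha catenin, fell by 1.45 (SE 0.206) and Ankrd2, an ankyrin repeat protein of the sarcomere, fell by 1.38 (SE 0.311), while Myh7 was at -1.54 (SE 0.735, adjusted p = 0.11). Of 24 regulators of the slow program tested, 4 rose and 6 fell, a share called that was close to the 40.9% of all genes. Tead4, a factor that binds CATTCC, rose by 1.83 (SE 0.218) and its relative Tead1 fell by 0.94 (SE 0.219), Ppargc1a, the coactivator of oxidative genes, fell by 1.06 (SE 0.197), its relative Ppargc1b fell by 0.95 (SE 0.124), and Sox6, a repressor of slow genes, fell by 0.89 (SE 0.104). With library size in place of TMM, 8 of the 19 slow and oxidative genes were called as higher and 6 as lower. Of the 24 regulators, 18 were called as higher and 3 as lower. That fit called 9504 of the 13754 genes tested as higher and 520 as lower. The 10 called genes named here kept their direction there, and of them only Tead1 (-0.37, adjusted p = 0.11) was no longer called.

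In Hsf1-/- mice, 0 of 9 members differed from wild type mice over the 4 treatments by edgeR's test, in a comparison in which 7.61% of all genes were called. All 9 log2 fold changes were below 0, with a median of -0.71 against 0 over all genes, and 2 members had an unadjusted p under 0.05, as 22.9% of all genes did: Casq2 (-0.59, SE 0.209, adjusted p = 0.096) and Tpm3 (-0.71, SE 0.27, adjusted p = 0.12). DESeq2 called 0 of 9 as well (10.7% of all genes). Behind this mean, the control and vehicle groups differed in opposite directions. Each of these is 2 mice against 2, and the members varied together, so that their counts are not separate evidence. In controls 8 members were higher in both Hsf1-/- mice than in both wild type mice, all but Casq2, where 25.5% of all genes were. In vehicle mice all 9 were lower in both Hsf1-/- mice, where 20.9% of all genes were. Tpm3, for example, was at 14.1 and 15.1 CPM in wild type and 33.4 and 32.2 CPM in Hsf1-/- controls, and at 22.7 and 19.1 CPM in wild type and 6.45 and 8.51 CPM in Hsf1-/- vehicle mice. The Hsf1-/- controls and vehicle mice also differed in age (10 and 8 weeks), and control and vehicle mice in anaesthesia. The Y-linked counts were 0 in wild type controls and at least 4864 in Hsf1-/- controls, and high in both genotypes with vehicle, so that what goes with each cannot be told apart. The calls of the members changed without mouse 2 of the Hsf1-/- HSP990 group, which left 1 mouse in that group. Myl3 was then at -2.24 over the 4 treatments, and Casq2 at -0.76 in place of -0.59.

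The response to HS was examined within each genotype. No member was called in wild type mice (2.06% of all genes were), in R6/2 mice (0.0436% of all genes) or in Hsf1-/- mice (0.00727% of all genes). At an unadjusted p under 0.05 there were 0, 0 and 5 members (11.8%, 8.12% and 8.8% of all genes), and DESeq2 called 0, 0 and 1 (3.94%, 0.923% and 1.17% of all genes). The 9 members had a median change of -0.29 (log2) in wild type mice, 6 of them below 0 and 3 above, against -0.01 over all genes. In R6/2 mice all 9 changes were below 0, with a median of -1.1, and the largest were Myl3 (-2.25, SE 1.32) and Tnnc1 (-2.13, SE 1.13). In Hsf1-/- mice all 9 were lower in both HS mice than in both controls, where 21.6% of all genes were, with a median of -1.39. Both HS mice were below both controls for 4 members in R6/2 mice (14.5% of all genes) and for 4 in wild type mice (24.6%), where they were above them for 2 more (23.1%).

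Among these Hsf1-/- values, Tpm3 was at 33.4 and 32.2 CPM in controls and at 11.4 and 4.17 CPM after HS, a log2 fold change of -2.07 (SE 0.554, adjusted p = 0.18 by edgeR and 0.049 by DESeq2, the only member DESeq2 called). Tnnc1 was at -2.53 (SE 1.12), Tnni1 at -2.14 (SE 1.05), Tnnt1 at -2.13 (SE 0.906), Atp2a2 at -1.07 (SE 0.351, adjusted p = 0.29) and Casq2 at -0.89 (SE 0.419). In this fit the spread was estimated over all 12 groups, including the HSP990 pairs. Fitted on the 4 mice compared alone, 4 members were called (Tnnt1, adjusted p = 0.017; Tnnc1, 0.037; Tnni1, 0.043; Myl3, 0.043), on 2 residual degrees of freedom. That fit called 98 genes in all, against 1 in the fit of 12 groups. The 2 Hsf1-/- controls had the highest Tnnt1, Tnnc1 and Tpm3 levels of all 24 mice. The difference between the HS responses of Hsf1-/- and wild type mice was called for 0 of 9 members (0.16% of all genes), with Tpm3 at -2.23 (SE 0.765, unadjusted p = 0.0098, adjusted p = 1), and that of R6/2 and wild type mice for 0 of 9 (0.0727% of all genes). By DESeq2 these were 0 of 9 as well.

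**Figure D5:**
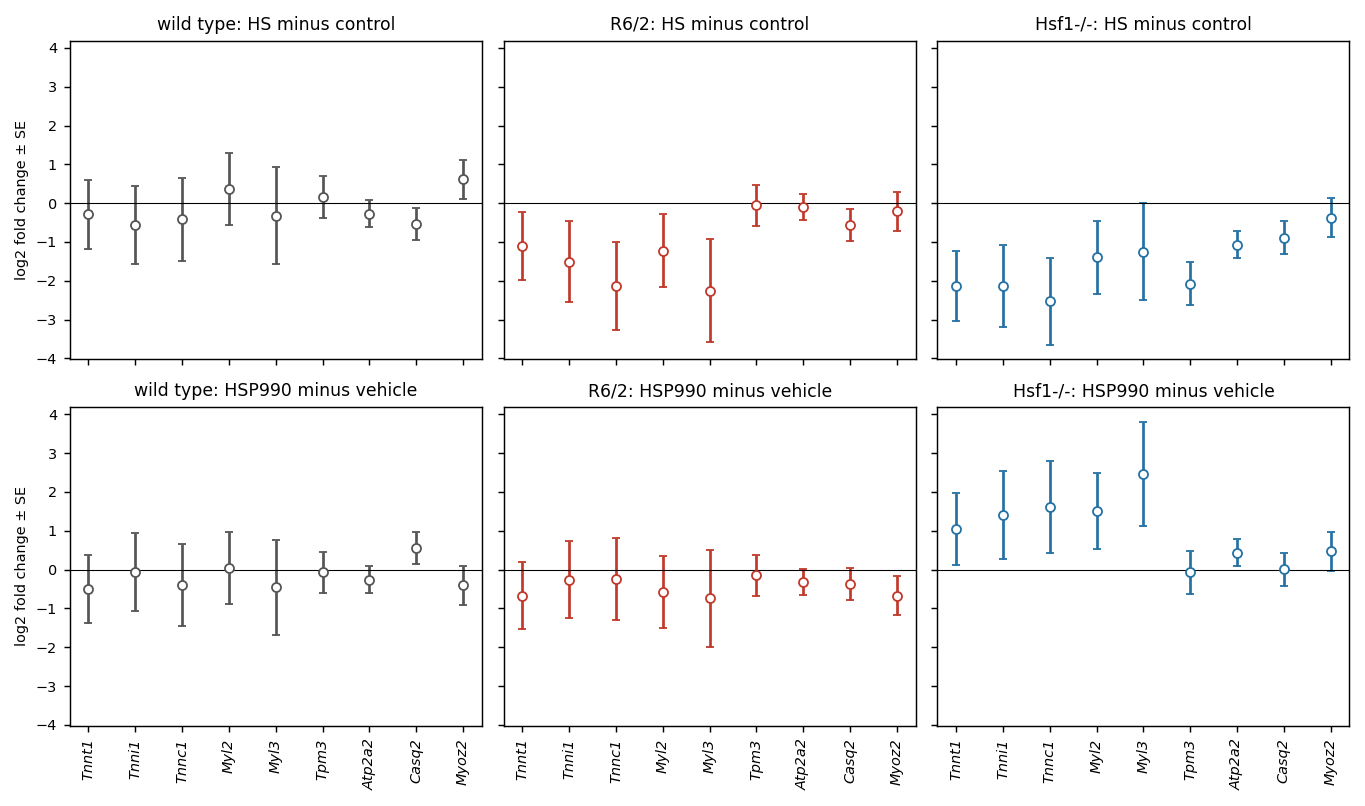
Log2 fold change ± SE of the 9 slow fibre genes after HS against control (top) and after HSP990 against vehicle (bottom) in wild type, R6/2 and Hsf1-/- mice, 2 mice against 2 in each panel. No member was called (all symbols open). The points lie below 0 for all 9 genes after HS in R6/2 and Hsf1-/- mice and after HSP990 in R6/2 mice.

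The only gene called after HS in Hsf1-/- mice by edgeR was a regulator of the slow program, Ppargc1a, which rose by 3.12 (SE 0.421, adjusted p = 0.016). It also rose in wild type mice (2.05, SE 0.406, adjusted p = 0.013), and was at 1.03 (SE 0.394, adjusted p = 0.45) in R6/2 mice. The difference of this response from that of wild type mice was not called in either genotype (adjusted p = 1 for Hsf1-/- and 0.99 for R6/2 mice). Of the 24 regulators tested, none but Ppargc1a was called after HS in any genotype, and of the 19 other slow and oxidative genes none was.

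After HSP990, no member was called in wild type mice (1.85% of all genes), R6/2 mice (1.43% of all genes) or Hsf1-/- mice (0.218% of all genes), and 0 members had an unadjusted p under 0.05 in each. DESeq2 also called 0. The medians were -0.26, -0.38 and 1.04, and in R6/2 mice all 9 changes were below 0, as they were after HS. In Hsf1-/- mice 8 of 9 members were above 0, up to 2.46 (SE 1.35) for Myl3, but the 2 treated mice lay on both sides of the vehicle mice for 8 members, all but Atp2a2. Without mouse 2 of that group Myl3 turned from 2.46 to -2.75, Tnnt1 from 1.04 to -1.32, Tnnc1 from 1.61 to -0.89 and Tnni1 from 1.4 to -1.07. A sign that turned with 1 mouse was also found in wild type mice for Myl2 (0.05, and -1.35 without mouse 1 of the HSP990 group) and in R6/2 mice for Tnnc1 (-0.25, and 1.94 without mouse 2 of the vehicle group). The differences between the HSP990 responses of the genotypes were called for 0 of 9 members in R6/2 against wild type (0% of all genes, 981 of which had an unadjusted p under 0.05) and 0 of 9 in Hsf1-/- against wild type mice (0.422% of all genes). The HS and HSP990 responses of R6/2 and Hsf1-/- mice are each set against the same wild type mice and are not independent.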

How the data were processed

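The authors sequenced quadriceps RNA of 24 mice as strand-specific paired-end reads and aligned them to mm9 with Bowtie. The deposited values are raw whole-number counts per gene, not normalized. The counting program and annotation are not given in the sources used here. DESeq2 is also named in the submitters' processing notes. Each of the 12 groups held 2 mice, and 0 columns belonged to no sample.

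From the counts, a gene entered the test if 10 or more libraries held 2 or more counts of it (13754 of 18669 genes), and libraries were scaled by TMM. A model with 12 groups (12 residual degrees of freedom) was fitted with the quasi-likelihood test of edgeR 4.0.16 (R 4.3.3, limma 3.58.1), with Benjamini-Hochberg adjustment over all genes tested and a threshold of 0.05. Ratios between mice used log2(CPM + 0.5). A test of single values on 2 mice against 2 cannot go below p = 0.333 by exact permutation, so none was used. Copies of the transcripts in mm9 were sought with blastn 2.17.0+ (98% identity, 40 bases or more). Promoter sequences came from RefSeq (GRCm38.p6), a build other than that of the counts. The genes named were the 9 members, their fast counterparts, Hsf1, up to 5 called genes with the largest change in each other list, and the 5 most alike genes by each measure. Myh7 in R6/2 mice, and the cardiac genes of the tissue check, were chosen after their values were seen. The members and lists were chosen with earlier results of these data known.

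Alternatives were RLE scaling, library size only, TMM without the 20 most abundant genes, no filter, edgeR's own filter, DESeq2 1.42.0, the groups compared alone, a replicate block and leaving out each mouse. Leaving out the HSP990 groups and the scaling check of the other lists were added after the data were seen.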

Additional observations from a re-analysis of the deposited data

Results flagged for a closer look

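In 27 tests, on the log2(CPM + 0.5) scale, of a single mouse standing apart from the other mice of its genotype (9 genes, 3 genotypes of 8 mice), 3 were positive, where chance gives about 1 in 20. All 3 were mouse 2 of the wild type HSP990 group, which was lowest of 8 wild type mice in Tnnt1 (4.533 CPM, with the gap to the next mouse 0.53 of the range), Tnnc1 (2.318 CPM, 0.587) and Myl2 (12.77 CPM, 0.575). They rest on the log scale: with the gap and range taken in CPM the ratios were 0.287, 0.338 and 0.401, all under the limit of the test. The members share this library, so the 3 are not independent.

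For 3 genes both treated mice of one genotype lay above their control or vehicle mice, and both treated mice of another genotype lay below theirs. After HS, 23.1% of all genes lay above and 24.6% below in wild type mice, and 20.8% and 21.6% in Hsf1-/- mice. After HSP990 these shares were 24.3% and 24.7% in wild type and 21.2% and 17.9% in R6/2 mice. The share of all genes apart in opposite directions was not counted. The differences below are on the log2(CPM + 0.5) scale. Myl2 after HS was at 0.36 in wild type and -1.43 in Hsf1-/- mice, a difference of -1.79. Tpm3 after HS was at 0.15 and -2.16, a difference of -2.31. Casq2 after HSP990 was at 0.5 in wild type and -0.37 in R6/2 mice, a difference of -0.87. The edgeR test of the difference itself gave adjusted p = 1 for Myl2, 1 for Tpm3 and 0.78 for Casq2.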

How the results depend on the processing

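Of the counts and medians recomputed under an alternative, 212 stayed within the limits set for them and 10 moved; of the values of single members, 1599 stayed, 34 moved without being called, 18 gained and 23 lost a call, and no called value changed sign. After HS in Hsf1-/- mice, 0 called members became 4 with the groups compared alone (98 genes in all) and 1 with DESeq2 (161 genes in all). For the HS response of Hsf1-/- against wild type mice 0 became 1 with the groups compared alone (Tnnt1, edgeR adjusted p = 0.042). That fit called 44 genes in all. In R6/2 against wild type mice, the calls changed with the mouse left out. Leaving out the HSP990 groups, chosen after the data were seen, gave 7 called members, and 5002 of the 13754 genes tested. In Hsf1-/- against wild type mice, the calls also changed on leaving out mouse 2 of the Hsf1-/- HSP990 group, which left 1 mouse there. Myl3 was then at -2.24 and Casq2 at -0.76. The cause was not tested. With library size only, the share of calls that were higher went from 77.4% to 50.9% after HS in wild type mice and from 76.7% to 88.4% after HSP990 in Hsf1-/- mice. With RLE scaling it went from 100% to 83.3% after HS in Hsf1-/- mice, where 6 genes or fewer were called.

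The replicate numbers only name the mice: the deviations of same-numbered mice had r between -0.2 and 0.24 over genes. With the replicate block, 3 members were called in R6/2 against wild type mice in place of 4 (Myl2 -1.25, adjusted p = 0.054).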
